A study of Callithrix jacchus with 39 samples.

Results

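One-tissue enhancer-like regions close to a promoter mark were examined in tissues of the marmoset Callithrix jacchus, a New World primate. A region of this kind carried H3K27ac in both replicates of exactly 1 tissue, overlapped no H3K4me3 peak of any library, and lay below 10 kb from the nearest H3K4me3 peak of any library. Regions were thus chosen by measured peak positions alone, so the tissue count, the missing H3K4me3 overlap and the short gap are not findings. The rule found 10543 regions among 65161 regions of the merged H3K27ac catalogue and among 32447 one-tissue enhancer-like regions at any distance. The remaining 21904 one-tissue enhancer-like regions, at a gap of 10 kb or more, served as the comparison. Of these, 17873 lay at 10 to 100 kb, 3737 at 100 kb or more, and 294 on sequences without any H3K4me3 peak.

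The series profiled H3K27ac (antibody ab4729) and H3K4me3 (antibody ab8580) by ChIP-seq in liver, skeletal muscle, colon, spleen, pancreas, kidney, stomach and heart. Each tissue had 2 numbered replicates of each mark, except heart, which had 1 H3K4me3 library, giving 16 H3K27ac and 15 H3K4me3 libraries. The labels name the species, the tissue and the antibody and no treatment, strain or age, and do not tie replicates to separate animals. A p-value here reflects the spread between the sampled tissues, part of which may be technical.

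Acetylation of histone H3 at lysine 27 is deposited at active enhancers and active promoters, and trimethylation at lysine 4 marks mainly the start sites of genes. Enhancers are stretches of DNA that raise the transcription of a gene on the same chromosome, from close by or from far away, and many are active in few cell types. In bulk tissue, a region acetylated in a rare cell type and a region weakly acetylated in all cells cannot be told apart. H3K27ac lists held 24590 to 51554 peaks and H3K4me3 lists 16386 to 24424 peaks. Sequencing depth is not known from these lists, and a missing peak means only that none was called. Genes, sequences and tissue marker genes were not analysed here, because the gene tables used describe another assembly than calJac3, the build of the peak lists.

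Liver held the most regions, 3066 or 29.1% of all, followed by skeletal muscle with 2196, colon with 1864 and spleen with 1323. Pancreas had 729, kidney 619, stomach 527 and heart 219. Their number followed the supply of one-tissue enhancer-like regions, of which 31.5 ± 2.62% lay below 10 kb from H3K4me3 in a tissue (SD, n = 8). This share was highest in liver at 34.1%, spleen at 33.9% and skeletal muscle at 33.7%, and lowest in kidney at 27.9% and pancreas at 27.4%. Of the 41524 enhancer-like regions of any number of tissues, 33.9% were this close to H3K4me3, against 32.5% of the one-tissue regions. The share was 37.1% among regions of 2 tissues, 45.5% among those of 5 and 62.7% among the 51 of all 8. The regions made up 5.34 ± 3.23% of all reproducible H3K27ac regions of a tissue (SD, n = 8), with 9.65% in liver and 1.38% in heart.

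**Figure D1:**
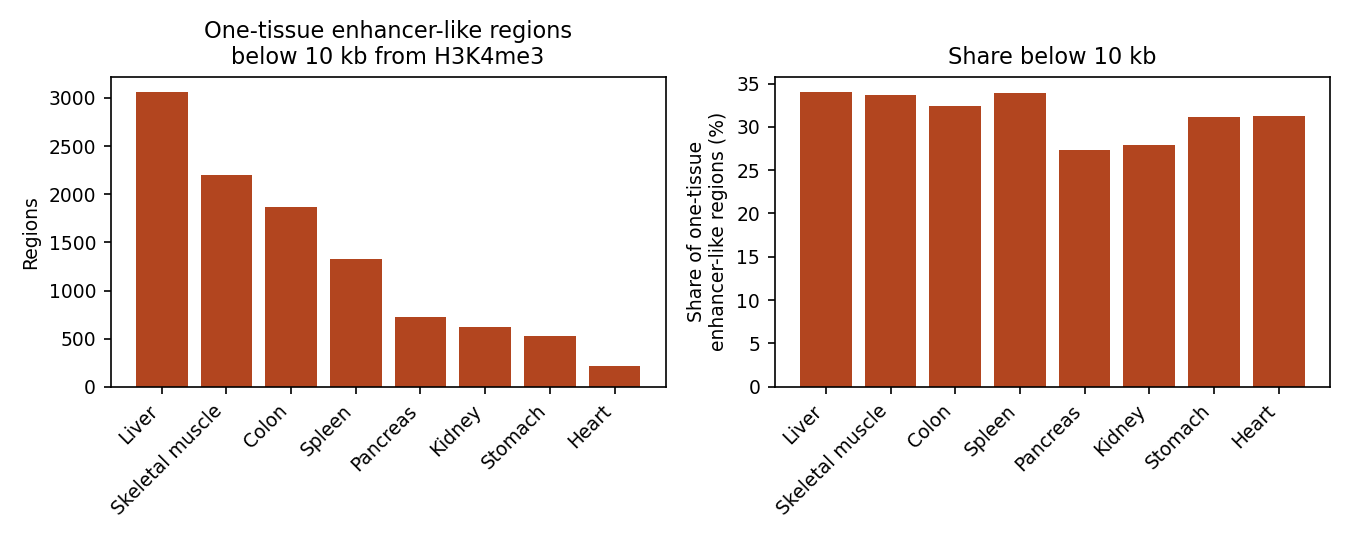
Number of one-tissue enhancer-like regions below 10 kb from H3K4me3 in each tissue (left, regions) and their share of all one-tissue enhancer-like regions of that tissue (right, percent). Bars are single counts or shares per tissue, running between 219 regions in heart and 3066 in liver, whereas the share stays between 27.4% and 34.1%.

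Together the regions covered 9.50 Mb. Their median length was 755 bp, with an interquartile range of 559 to 1083 bp, and the longest, in colon, measured 6467 bp. Per tissue the median length was 720 ± 70.1 bp, against 739 ± 75.5 bp at 10 kb or more (SD, n = 8), and it was shorter close to H3K4me3 in 6 of 8 tissues. Length follows from the same peak positions as the rule and was not tested. The median gap to H3K4me3 was 3466 bp, with quartiles at 1390 and 6377 bp. In 12.6% of the regions H3K4me3 lay below 10 kb on both sides. At the limit itself length changed little. The 331 regions with gaps of 9500 to 9999 bp had a median of 750 bp, and the 348 regions at 10000 to 10499 bp had 764 bp. The mean percentile of fold enrichment of the strongest peak of each region (100 is strongest in the list) was 37.2 inside and 34.5 outside. This local contrast, which was not tested, ran opposite to the lower rank of the regions close to H3K4me3 given below. The outermost region inside the limit was a spleen region of 714 bp on chromosome 1 at a gap of 9999 bp, and the first outside was a colon region of 813 bp on chromosome 5 at 10000 bp.

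The regions lay on all assembled chromosomes. Chromosome 5 held the most, 911, and chromosome 1 had 823. On chromosome 22, a chromosome dense in H3K4me3 with 1893 merged H3K4me3 regions, 468 of 772 one-tissue enhancer-like regions or 60.6% lay below 10 kb. On chromosome 17, with 690 H3K4me3 regions, the share was 23.02%. On unplaced or randomly placed sequences there were 246.

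The regions close to H3K4me3 ranked lower in H3K27ac fold enrichment than one-tissue enhancer-like regions farther away, a difference that was not found with the −log10 p of the same peaks. Fold enrichment is the authors' value for each peak, and it was expressed as a percentile within its own list, where 100 stands for the strongest peak. Over all peaks in them, and not the strongest alone, the regions had a mean percentile of 33.8 ± 3.03, against 40.4 ± 4.77 for peaks at 10 kb or more (SD, n = 8). The difference was -6.61 ± 1.995 percentile points and negative in 8 of 8 tissues (exact permutation p = 0.00781, adjusted p = 0.0109). Here and below, each permutation test flipped the signs of the tissues' differences in all combinations and was two-sided. It treats the tissues as independent. This does not fully hold where a tissue's own regions are set against those of other tissues, since such comparisons share regions. The smallest p that 8 tissues allow is 0.00781, and adjustment covered 7 comparisons. All 16 libraries moved the same way, by between -2.30 points (heart, replicate 1) and -9.47 points (pancreas, replicate 1).

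In colon, replicate 1 gave 39.996 close to H3K4me3 against 47.1 farther away, and replicate 2 gave 30.7 against 37.2. In liver the values were 37.3 against 45.03 and 36.2 against 45.2, and in heart 32.7 against 35.0 and 23.7 against 28.3. Within a library the groups stood apart in each of these tissues, while the level differed between replicates of colon and heart by more than the groups did. On the linear scale the medians were close together: in liver, 5.31 and 4.91 fold near H3K4me3, against 5.87 and 5.60 fold farther away in the same replicates, with list medians of 6.12 and 5.81 fold. Few peaks of these regions stood among the strongest 10% of their list, at most 1.08% (kidney, replicate 1), against at most 3.35% farther away.

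The lower rank did not hold for the other strength measure in the files. With the −log10 p of the peak caller in place of fold enrichment, the mean percentile was 40.01 ± 3.95 close to H3K4me3 and 39.9 ± 3.87 farther away (SD, n = 8), a difference of 0.12 ± 1.43 points that was positive in 4 of 8 tissues (exact permutation test, p = 0.82). Keeping 20000 peaks a list, the strongest by fold enrichment, gave a fold difference of -1.05 points (exact permutation test, n = 8, p = 0.125). That cut is made on the compared value itself, so it is no independent check of the fold difference. Against regions at 10 to 100 kb alone it was -4.62 points (exact permutation test, n = 8, p = 0.00781). Across gap bins the percentile was flat inside the limit, at 33.9 ± 3.01 below 1 kb and 34.0 ± 3.49 at 5 to 10 kb. Beyond it the values were 35.4 ± 4.45 at 10 to 20 kb and 37.2 ± 5.05 at 20 to 50 kb. They reached 43.4 ± 5.16 at 50 to 100 kb and 48.1 ± 4.89 at 100 kb or more (SD, n = 8), so the rise was gradual, without a step at the limit.

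**Figure D2:**
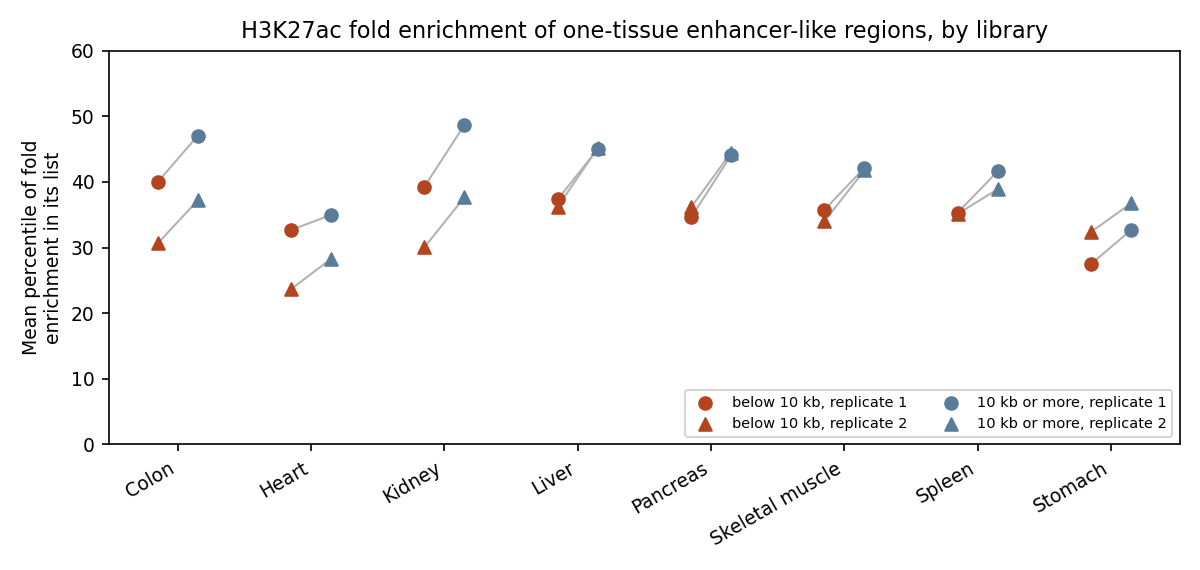
Mean percentile of H3K27ac fold enrichment within each library's own list (0 weakest, 100 strongest) for one-tissue enhancer-like regions below 10 kb and at 10 kb or more from H3K4me3. Circles are replicate 1 and triangles replicate 2, joined within a library, and in all 16 libraries the value below 10 kb is the lower one.

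Shared coverage of the regions by both replicates was slightly higher close to H3K4me3, a difference that did not hold under a stricter overlap. The rule itself keeps only peaks that overlap the other replicate, close by and farther away alike, so the level of agreement is partly set by it. Of the bases covered by either replicate within a region, 58.7 ± 3.41% were covered by both, against 57.4 ± 3.11% at 10 kb or more (SD, n = 8). The difference of 1.305 ± 0.577 percentage points was positive in 7 of 8 tissues (exact permutation p = 0.0156, adjusted p = 0.0182). Liver had the highest shared coverage, 63.5%, and heart the lowest, 53.2%, and pancreas was the tissue without a gain, with 54.75% close to H3K4me3 and 54.80% farther away. When replicate overlap was set to at least 50% of a peak, the difference was 0.20 points (exact permutation test, n = 8, p = 0.477), and from the strongest 20000 peaks a list it came to 3.16 points (exact permutation test, n = 8, p = 0.00781). Across regions of a tissue, the percentile of the strongest peak correlated between replicates with Spearman's rho of 0.48 (pancreas, 729 regions) to 0.67 (skeletal muscle, 2196 regions), a description over regions that share 2 libraries.

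The summit of the strongest peak lay near the middle of the region. On a scale with 0 at the edge facing H3K4me3 and 1 at the far edge, it averaged 0.497 ± 0.0035, against 0.501 ± 0.0037 at 10 kb or more (SD, n = 8). The difference of -0.0035 ± 0.0046 was negative in 7 of 8 tissues (exact permutation test, p = 0.0391, adjusted p = 0.0391). It was 8.71e-05 when replicate 2 libraries alone were used (exact permutation test, n = 8, p = 1) and -0.0011 without heart H3K27ac replicate 1 (exact permutation test, n = 8, p = 0.766). Without certain single libraries of liver, skeletal muscle or spleen it stayed negative and missed the threshold, with p up to 0.289 (exact permutation tests, n = 8), the highest without skeletal muscle H3K4me3 replicate 2, at -0.0026. Without any 1 of colon, kidney, liver, spleen or stomach p was 0.0781 (exact permutation tests, n = 7). Other settings gave values between -0.0116, with a replicate overlap of at least 50%, and 0.00016, with H3K4me3 regions of at least 2 libraries, and -0.0090 with the strongest 20000 peaks. The difference in summit position thus did not hold across libraries and settings.

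Acetylation called in at least 1 library of another tissue was more frequent close to H3K4me3. The rule counted a tissue only where peaks were found in both replicates, so unreplicated peaks of other tissues could still lie in a region. Of the 10543 regions, 3921 had such a peak in at least 1 library of another tissue and 6622 had none in any of them. Among the regions at 10 kb or more, 32.4% had one. Averaged over tissues the share was 43.1 ± 11.97% below 10 kb and 37.2 ± 10.96% at 10 kb or more (SD, n = 8). The difference of 5.87 ± 2.24 percentage points was positive in 8 of 8 tissues (exact permutation p = 0.00781, adjusted p = 0.0109). Using replicate 2 libraries of other tissues alone gave 4.74 points (exact permutation test, n = 8, p = 0.00781) and replicate 1 libraries alone 3.05 points (p = 0.0312). With replicate 1 libraries the difference was negative in heart, at 43.8% close to H3K4me3 and 45.6% farther away, and positive in the other 7 tissues. Averaged over both replicate numbers, each used alone, the difference was 3.90 points (exact permutation test, n = 8, p = 0.00781). The regions close to H3K4me3 were also lower in fold enrichment, as given above, and the part of this in the result was not tested.

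Heart regions were the least exclusive: 62.1% had H3K27ac in a library of another tissue, against 56.8% of heart regions farther from H3K4me3. Spleen followed with 55.0% against 46.2% and stomach with 50.9% against 44.5%. Skeletal muscle regions were the most exclusive at 29.1% against 25.1%, next to liver at 31.8% against 28.1% and colon at 33.0% against 30.2%. The order of the 8 tissues was the same close to H3K4me3 and farther away, and the 3 tissues with the most regions had the lowest shares.

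The other tissue whose libraries most often met the regions differed. These shares were not computed at 10 kb or more, so they describe the regions close by and no excess over farther ones. Colon libraries met 28.5% of stomach regions, and stomach libraries met 15.99% of colon regions, the leading tissue in each case. Heart libraries led for skeletal muscle regions with 9.06%, whereas kidney libraries led for heart regions with 24.7% and skeletal muscle libraries met 10.05% of them. Liver libraries led for spleen (25.8%), pancreas (18.0%) and kidney (16.3%), and liver also had the longest lists. Kidney libraries led for liver regions, with 10.8%.

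**Figure D3:**
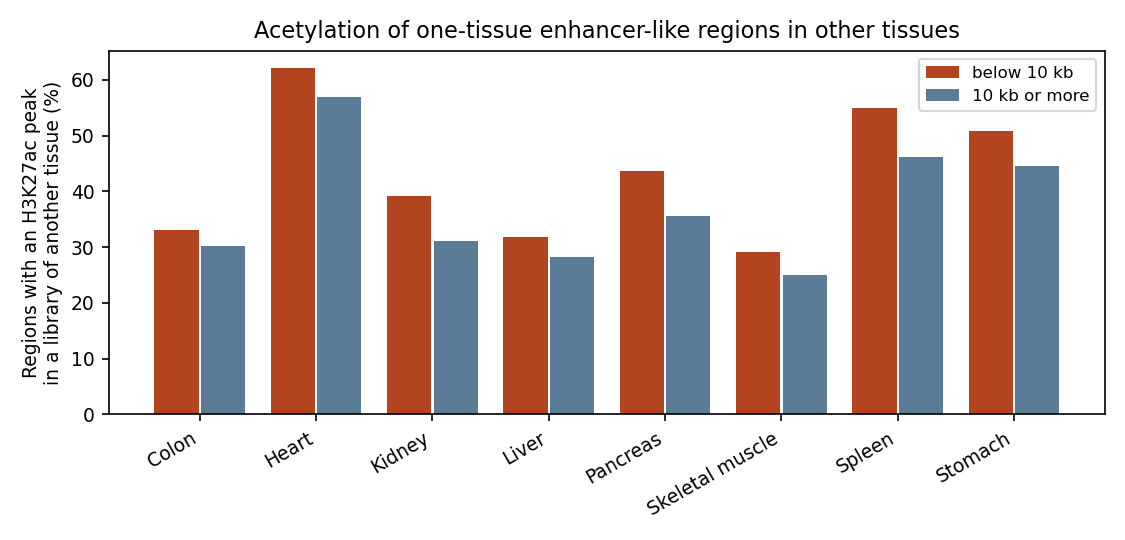
Share of one-tissue enhancer-like regions overlapped by an H3K27ac peak in at least 1 library of another tissue (percent), for regions below 10 kb and at 10 kb or more from H3K4me3. Bars are single shares per tissue, and in all 8 tissues the bar below 10 kb is the higher one, by 2.84 points in colon to 8.73 points in spleen.

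The promoter mark nearby belonged to the region's own tissue more often than to other tissues. Any library could satisfy the rule's gap limit, so the rule did not fix which tissue supplied the H3K4me3 peak. It raises both the levels and the difference between them, because every region has a peak of some tissue below 10 kb. A region can also have entered through H3K4me3 of its own tissue alone. For each tissue's H3K4me3 peaks, the share of that tissue's own regions with such a peak below 10 kb was set against the same share among regions of the 7 other tissues. Own regions had H3K4me3 of that tissue below 10 kb in 78.4 ± 7.41% and regions of other tissues in 59.6 ± 6.499% (SD, n = 8). The difference of 18.9 ± 3.48 percentage points was positive in 8 of 8 tissues (exact permutation p = 0.00781, adjusted p = 0.0109). Over all 32447 one-tissue enhancer-like regions at any gap, which the limit does not select, the shares were 24.8 ± 3.77% and 18.8 ± 2.01%, a difference of 5.98 ± 3.12 points that was positive in 8 of 8 tissues (exact permutation test, n = 8, p = 0.00781, unadjusted and chosen after the values were seen).

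Liver H3K4me3 lay near 88.8% of liver regions, against 68.0% of other tissues' regions, and colon H3K4me3 near 85.0% against 64.8%. The largest difference was in spleen, with 76.0% against 51.5%. Heart, with its single H3K4me3 library, had 65.3% against 48.8%. In each of the 8 tissues the own regions had the highest share of any tissue's regions for that H3K4me3. The reverse did not hold for heart: 65.3% of heart regions had heart H3K4me3 below 10 kb, against 77.2% with skeletal muscle, 72.1% with liver, 68.9% with colon and 67.1% with stomach H3K4me3. All 15 H3K4me3 libraries gave a positive difference, but it varied with the list. Skeletal muscle replicate 1, a short list of 16850 peaks, gave 49.6% of own regions against 46.5% of others, a difference of 3.10 points, and replicate 2 with 24424 peaks gave 82.9% against 61.0%.

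The nearest H3K4me3 region was itself acetylated more often in the tissue of the neighbouring enhancer-like region than in other tissues. The rule did not use acetylation of that H3K4me3 region. It does drop candidates that run together with H3K27ac of another tissue, and can admit regions through own H3K4me3 alone. Both may add to the difference, and their part in it was not tested. H3K4me3 peaks of all libraries were merged into 35161 regions, and 7427 of them were the nearest to at least 1 of the regions described here. That H3K4me3 region carried reproducible H3K27ac of a tissue in 68.5 ± 7.40% of the tissue's own regions and in 39.2 ± 5.97% of regions of other tissues (SD, n = 8). The difference of 29.3 ± 6.45 points was positive in 8 of 8 tissues (exact permutation p = 0.00781, adjusted p = 0.0109) and in all 16 H3K27ac libraries taken singly, where it lay between 19.4 and 38.7 points.

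Skeletal muscle had the largest difference, with 70.8% of skeletal muscle regions and 32.2% of the others next to an H3K4me3 region acetylated in skeletal muscle. Spleen had 67.7% against 32.4%, colon 74.6% against 41.2% and liver 80.9% against 48.7%. Stomach had 68.9% against 41.7%, kidney 63.3% against 39.5% and heart 56.2% against 33.8%. Pancreas had the smallest difference, 65.8% against 44.3%. No share for regions of another tissue reached the own share in the same list: the 8 own shares lay between 56.2% and 80.9%, and the 56 others between 23.6% and 58.4%. The highest of those others was liver acetylation next to spleen regions, followed by pancreas next to spleen (54.5%), colon next to stomach (53.1%) and stomach next to colon (51.7%).

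**Figure D4:**
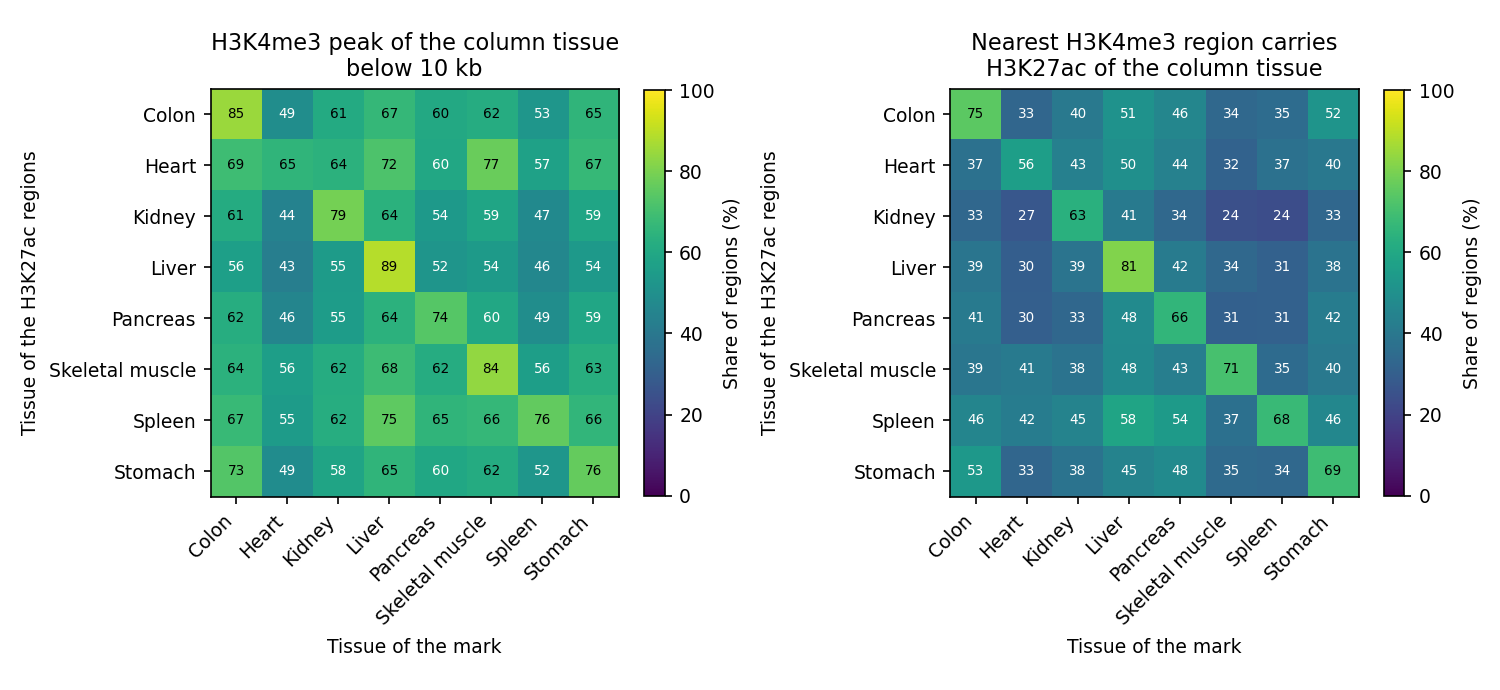
Rows are the tissue of the one-tissue enhancer-like regions and columns the tissue of the mark, and colour gives the percent of the row's regions for which an H3K4me3 peak of the column tissue lies below 10 kb (left) or the nearest merged H3K4me3 region carries reproducible H3K27ac of the column tissue (right). The diagonal holds the highest value of each column in both panels, and the highest of each row except for heart on the left.

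This preference was larger close to H3K4me3 than farther away, in a comparison chosen after the values were seen. The part of the rule in it was not tested here either. Below 10 kb, the nearest H3K4me3 region was acetylated in the own tissue more often by 29.3 ± 6.45 points, against 9.84 ± 4.28 points at 10 kb or more, a difference of 19.5 ± 3.54 points and positive in 8 of 8 tissues (exact permutation test, n = 8, p = 0.00781, unadjusted). Across gap bins the own share was 77.3 ± 7.08% below 1 kb, 69.0 ± 8.71% at 2 to 5 kb, 59.6 ± 10.3% at 5 to 10 kb, 49.2 ± 9.98% at 20 to 50 kb and 41.3 ± 5.76% at 100 kb or more (SD, n = 8). The share for regions of other tissues was 31.2 ± 4.72% below 1 kb and lay between 40.7% and 42.8% in the bins from 1 to 100 kb, and it was 33.3 ± 4.01% at 100 kb or more. Own-tissue H3K4me3 at the nearest region was 79.1 ± 11.8% below 1 kb and 66.0 ± 9.08% at 5 to 10 kb (SD, n = 8).

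**Figure D5:**
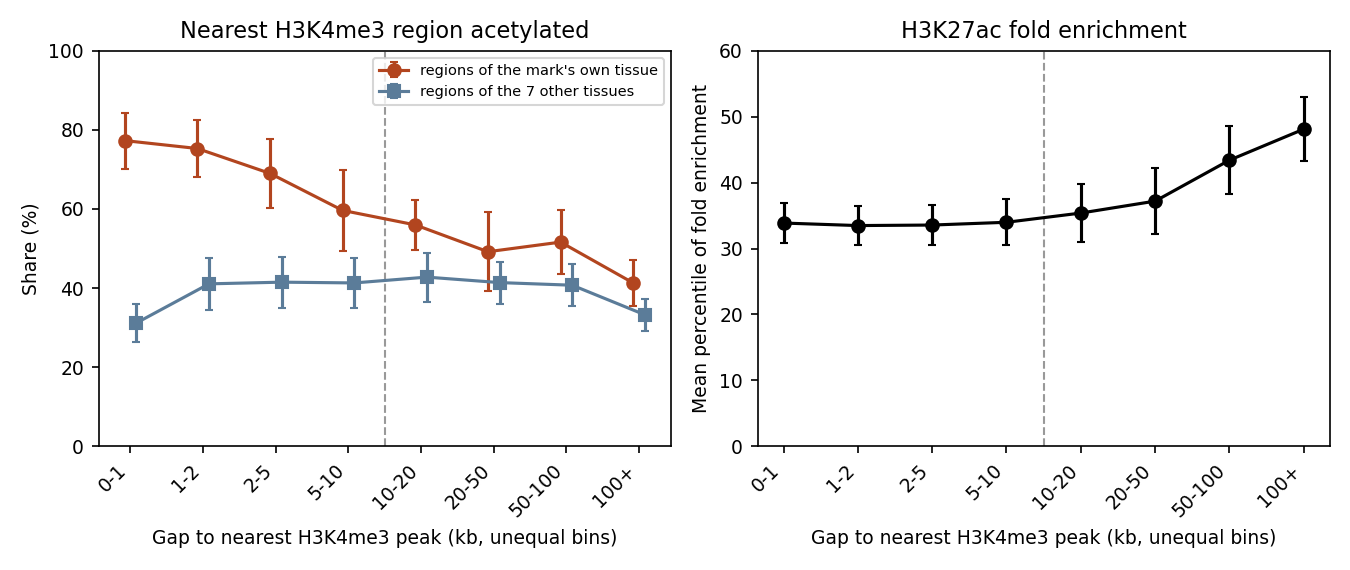
Values of one-tissue enhancer-like regions by gap to the nearest H3K4me3 peak (kb, unequal bins), as means over 8 tissues with SD bars, with a dashed line at the 10 kb limit. The left panel gives the percent of regions whose nearest H3K4me3 region is acetylated in a tissue, for that tissue's own regions (77.3% below 1 kb) and for regions of the 7 other tissues (31.2%), and the right panel the mean percentile of H3K27ac fold enrichment, 33.9 below 1 kb and 48.1 at 100 kb or more.

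The neighbouring H3K4me3 regions were of 2 main kinds. In 40.8% of cases the nearest one was found in 1 tissue and in 34.1% in all 8, against 36.0% and 38.9% for regions at 10 kb or more, and 33.1% and 37.6% of all merged H3K4me3 regions. The nearest one was called in only 1 of 15 libraries in 32.5% of cases. It carried no reproducible H3K27ac in any tissue in 15.1% of cases, against 24.7% at 10 kb or more.

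Where the nearest H3K4me3 region was found in 1 tissue, that tissue was the region's own in 58.7% of 4297 cases. The share was 74.5% in liver, 60.4% in colon and 59.7% in skeletal muscle, and 28.6% in stomach and 18.1% in heart. These shares were not computed for regions at 10 kb or more and are not read as particular to the regions close by. Among these 4297, own acetylation was 51.6 ± 12.9%, against 12.1 ± 5.22% for regions of other tissues (SD, n = 8), a difference of 39.5 points. Where it was found in all 8 tissues, own acetylation was 92.4 ± 4.39% against 81.2 ± 5.73% (SD, n = 8; 3594 regions), a difference of 11.2 points. Both were positive in 8 of 8 tissues (exact permutation test, n = 8, p = 0.00781 each, unadjusted, chosen after the values were seen). Among the 4297, many regions may have passed the gap limit through own H3K4me3 alone, which may add to the larger difference. That part was not tested. With the gap measured to H3K4me3 regions called in at least 2 libraries, 8321 regions remained below the limit and the difference in acetylation was 26.3 points (exact permutation test, n = 8, p = 0.00781).

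Own H3K4me3 and own acetylation went together. Of the 8118 regions whose nearest H3K4me3 region held a peak of the own tissue, 85.5% had own acetylation there, and of the other 2425 regions 30.5% had it. Where the nearest H3K4me3 region was acetylated in exactly 1 tissue, that tissue was the region's own in 74.6% of 2730 cases, with 87.1% in liver and 42.2% in heart. These shares were not computed over all merged H3K4me3 regions or for regions at 10 kb or more. They are descriptions and are not read as particular to these regions.

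The regions also stood in groups of the same tissue. A region of the same tissue and kind lay below 10 kb from 35.3 ± 10.8% of the regions, whereas a region of that tissue lay this close to 3.54 ± 2.002% of the regions of other tissues (SD, n = 8). The difference of 31.7 ± 9.10 points was positive in 8 of 8 tissues (exact permutation p = 0.00781, adjusted p = 0.0109). Grouping follows from the same peak positions as the rule. The rule drops regions that meet reproducible H3K27ac of another tissue, and counts separate peaks along an acetylated stretch of a tissue as separate regions. Both may add to the difference, and their part in it was not tested. From the strongest 20000 peaks a list, which leaves 3359 regions, it came to 12.7 points (exact permutation test, n = 8, p = 0.00781). Skeletal muscle had the highest same-tissue share at 51.5%, then liver at 47.3% and colon at 40.4%, and heart had the lowest at 18.3%, an order only partly that of the number of regions. Grouping was not particular to nearness: at 10 kb or more the difference was 35.1 ± 8.68 points (SD, n = 8). Neighbours were counted within each class only, among 10543 regions close by and 21904 farther away. A region of the same tissue across the limit was not counted, so class size and the limit enter the comparison of the classes. Near minus far was -3.33 ± 2.95 points (exact permutation test, n = 8, p = 0.0312, unadjusted and chosen after the values were seen), and without any 1 of colon, kidney, liver, pancreas, spleen or stomach p was 0.0625 (exact permutation tests, n = 7). It was -6.30 points at a limit of 5 kb and -5.78 points from the strongest 20000 peaks.

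Of the 7427 H3K4me3 regions with such a neighbour, 5198 were nearest to 1 region and 2229 to more. At 1495 of the 2229, or 67.1%, all neighbouring regions were of the same tissue. Liver, skeletal muscle and colon held 29.1%, 20.8% and 17.7% of all regions, and the share that this alone would give was not computed. Runs of at least 3 regions of a tissue, joined where gaps were below 10 kb, held 24.7% of skeletal muscle, 19.1% of liver and 14.2% of colon regions, and less than 10% in the other tissues. Neither these shares nor the 67.1% were computed for regions at 10 kb or more, where grouping was also found. They are thus not read as traits of nearness. The runs with the most regions, picked out after their values were seen, were in skeletal muscle and held 8 regions each. The first spanned chromosome 14, 96881957 to 96894752, and the second chromosome 18, 13686017 to 13703570. Each surrounded an H3K4me3 region of 2.47 kb and 2.505 kb that was called in 1 skeletal muscle library and acetylated in skeletal muscle alone. A spleen run of 6 regions, also picked by its values, on chromosome 13, 72655465 to 72664618, lay beside an H3K4me3 region found in all 15 libraries and acetylated in all 8 tissues.

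The strongest regions of each tissue, 3 per tissue by their mean percentile of fold enrichment over both replicates, reached 67.5 to 94.0 on that scale. Of these 24 regions, 19 lay next to an H3K4me3 region of the own tissue, 18 next to one acetylated in the own tissue, and 9 had no H3K27ac peak in any library of another tissue. Over all 10543 regions these shares were 77.0%, 72.8% and 62.8%, in which the tissues with the most regions weigh most. With each tissue weighed alike, 68.5% had own acetylation at the neighbour, and 43.1% had H3K27ac in a library of another tissue. The strongest regions were near the general share for the neighbour, and fewer of them lacked H3K27ac elsewhere, a contrast that was not tested. All positions are on calJac3.

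The highest-ranked region of all was in skeletal muscle on chromosome 3, 127095101 to 127097247, with 10.1 fold in replicate 1 and 15.7 fold in replicate 2. It lay 1414 bp from an H3K4me3 region that was called in 1 library of another tissue and was not acetylated in skeletal muscle. The first pancreas region, on chromosome 6, 148918160 to 148920058, had 16.4 and 12.8 fold and lay 439 bp from an H3K4me3 region of 5 tissues that was acetylated in pancreas alone. The first liver region, on chromosome 4, 130506494 to 130508645, had 14.5 and 19.1 fold and lay 1665 bp from an H3K4me3 region seen in 1 liver library and acetylated in liver alone.

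The first kidney region, on chromosome 16, 50781314 to 50782534, had 12.5 and 8.74 fold, and its replicates shared 95.2% of their bases. It lay 1401 bp from an H3K4me3 region of 5 tissues acetylated in 3, kidney among them. The first spleen region, on chromosome 8, 115036706 to 115038391, had 8.79 and 11.3 fold. It lay 5393 bp from an H3K4me3 region of 1 other tissue without spleen acetylation. The first colon region, on chromosome 9, 32914326 to 32916010, had 16.4 and 11.02 fold at a gap of 353 bp from an H3K4me3 region of colon alone in both marks.

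The first stomach region, on chromosome 7, 102739220 to 102741080, had 9.07 and 8.47 fold, with H3K27ac also in 3 libraries of other tissues. The first heart region, on chromosome 14, 105186598 to 105187364, had 6.51 and 9.79 fold, at the 59.3 and 85.5 percentiles of its lists. These firsts lay next to H3K4me3 regions of 6 and 2 tissues, both acetylated in the own tissue. Fold values of a single region differed between replicates by several units in skeletal muscle, liver and colon, so the order among the strongest is a description of these libraries.

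The longest region of each tissue had a mean percentile between 58.4 in heart and 76.5 in skeletal muscle. Ranked among the strongest 20000 peaks a list alone, which removes weaker peaks from the scale, these 8 regions stood between 33.1 and 58.2. The longest of all, 6467 bp in colon on chromosome 3, 44058126 to 44064592, had 9.67 and 7.49 fold. It lay 126 bp from an H3K4me3 region found in both colon libraries and no other, and no library of another tissue had H3K27ac in it.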

How the data were processed

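Peaks were called per library, since each of the 31 ChIP libraries had its own list; 8 input samples were not analysed here. The sources used here do not state how input entered peak calling. Software named, per the submitters' processing notes, was MACS2 2.1.1.20160309 and bedtools 2.26, together with SAMtools 1.3.1 and Bowtie 1.1.2. Build calJac3 comes from the deposited peak names. Deposited fold enrichment is a ratio, and the deposited −log10 p and −log10 q are the authors' peak caller's values, all used only within a list.

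Interval work used numpy 2.4.6, scipy 1.17.1 and Python 3.11.15; plots used matplotlib 3.10.9. Any shared base counted as overlap. H3K27ac peaks overlapping the other replicate were kept and merged over tissues. Replicate lists had a Jaccard index of 0.467 to 0.735, so none was a duplicate. Tests took 1 value per tissue, with Benjamini-Hochberg adjustment over 7 comparisons, and the code was tested on simulated intervals. Named regions were the 3 with the highest mean fold percentile on assembled chromosomes, and the longest, per tissue, and those nearest the 10 kb limit. Regions, comparisons and alternatives were chosen with earlier results of these data known; the preference near against far, the kinds of neighbour the limit to H3K4me3 regions of at least 2 libraries and the own H3K4me3 share at any gap were added after seeing the data.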

Additional observations from a re-analysis of the deposited data

How the results depend on the processing

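Nearness to own-tissue H3K4me3, own acetylation of the nearest H3K4me3 region, its excess over far regions, same-tissue grouping and acetylation in other tissues' libraries kept their direction and passed the threshold under every alternative run. Leaving out libraries, replicate numbers or tissues in turn gave 12.8 to 19.5, 28.0 to 30.4, 18.6 to 20.1, 29.6 to 33.8 and 3.05 to 6.30 points. The rule enters the size of the own H3K4me3 difference, which was 5.98 points at any gap, and may enter that of own acetylation and of same-tissue grouping. For fold enrichment the range was -7.06 to -6.28, for shared coverage 1.18 to 1.498, for the summit -0.0071 to 8.71e-05 and for the near minus far grouping -3.90 to -2.59. Fold enrichment was -1.05 with the 20000 strongest peaks, a cut made on fold enrichment itself, and 0.12 with −log10 p. Shared coverage was 0.20 with a 50% overlap. The cause of these was not tested. The summit was -0.0057 at a limit of 5 kb, -0.0013 at 20 kb, -0.0031 against 10 to 100 kb and 0.00016 with H3K4me3 regions of at least 2 libraries, which moved the near minus far grouping to -3.62 (exact permutation test, n = 8, p = 0.0703). The number of regions was 3359 with the 20000 strongest peaks, 6732 at 5 kb, 15820 at 20 kb and 6622 with no H3K27ac in any library of another tissue, and 10132 to 10541 without single H3K4me3 libraries.

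The replicate number as a block gave -6.61, 3.90, -0.0035, 14.96 and 29.3 for fold enrichment, other tissues' libraries, the summit, own H3K4me3 and own acetylation. Such a block cancels in every tissue with both replicates, so it could not change a tissue's mean there and is no check. The values for other tissues' libraries and own H3K4me3 differ from those above because lists were used by replicate number or singly. Libraries of the same number deviated together with correlations of -0.010 to 0.19 between marks of 7 tissues, 3 of 7 above 0.1, and of -0.023 to 0.25 between tissues for H3K27ac, 9 of 28 above 0.1; as not every pair passed 0.1, the numbers were not taken to pair samples. No block could be fitted for shared coverage and grouping, which use both replicates at once. Setting the same regions against the lists of other tissues gave the same mean by construction. Of 194 values of named regions under alternatives, 25 moved by more than the replicate spread, all with the 20000 strongest peaks. Of the 32 named regions, 31 remained with the 20000 strongest peaks, 22 at 5 kb and 14 with no H3K27ac elsewhere. Unknown depth limits every absence.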
